A study of Mus musculus with 6 samples.

Results

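The scavenger, dead-cell and Fc uptake receptors are a set of 10 genes listed by name: Cd14, Havcr2, Axl, Mertk, Scarb1, Sirpa, Fcgr2b, Fcer1g, Clec12a and Cd207. They were found by their mouse GENCODE M21 symbols among 32285 features in a table of read counts. All 10 were present, and all 10 were among the 12568 genes that had enough counts to be tested, so that 0 were too low to judge. Mertk and Cd207 were low, as given below.

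The libraries came from cDC1s, the dendritic cells that take up material from dying cells and present it to CD8 T cells, sorted by flow cytometry from mLNs of C57BL/6 mice. There were 3 libraries of wild-type mice (WT) and 3 of Vps33BdeltaDC mice, which the titles call Vps33B KO (KO). Mice of both groups had been given 50 µg of HDM, the usual abbreviation of house dust mite, through the nose, with cells taken 24 h later, so the comparison concerns cells after allergen and no unexposed cells were analysed here. Neither the driver of the deletion, the age of the mice nor the number of mice behind a library is given in the sources used here. Where libraries of a group do not come from separate mice, the p-values measure technical spread alone.

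Uptake receptors decide which particles a dendritic cell takes in and where they go. Dying cells expose phosphatidylserine, which TIM-3 binds directly and which Axl and Mertk bind through the bridging proteins Gas6 and protein S. Antibody-coated material is bound by Fc gamma receptors, which signal for activation through the Fc receptor gamma chain or for inhibition through Fcgr2b. VPS33B acts on endosomes and lysosomes, downstream of these receptors, in the sorting of membrane proteins.

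Vps33b itself was at 16.2, 19.1 and 13.8 CPM in the WT libraries and at 5.0, 7.01 and 8.29 CPM in the KO libraries, in replicate order. CPM here are counts scaled to a common library total with TMM factors. KO held 41.3% of the WT mean, and the ranges did not overlap, with p = 0.1 in an exact two-sided permutation test, the smallest that 6 libraries allow. Its log2 fold change in edgeR was -1.28 ± 0.27 (SE), with an adjusted p of 0.834 over all genes tested. Library totals ran from 11755944 to 18450678 counts. All 12 cDC1 markers were detected, with Tlr3 lowest at 0.353 to 4.01 CPM. Xcr1, Itgax, Ppt1 and Wdfy4 were lower in every KO library than in any WT library, and the other cDC1 markers overlapped. Over all genes tested, 5.19% had that pattern. The 10 mature CCR7+ dendritic cell markers summed to 20400 to 21900 CPM in WT and 22000 to 27800 CPM in KO. Among them Socs2 alone was higher in every KO library than in any WT library, as were 5.46% of all genes tested. The other mature markers overlapped. Whether such differences bear on the uptake receptor values was not tested. All 14 monocyte and macrophage markers outside the set of 10 were detected too, and their summed level stood apart in 2 libraries. The sum was 400 CPM in WT replicate 1 against 191 and 222 CPM in the other WT libraries, and 778 CPM in KO replicate 3 against 203 CPM in each of the other KO libraries. Lyz2 was the largest part of this sum, at 192 CPM in WT replicate 1, 468 CPM in KO replicate 3 and 106 to 136 CPM elsewhere. Ly6c2, Ccr2 and Cx3cr1 were highest in libraries other than WT replicate 1 and KO replicate 3. Results that rest on the 2 libraries with high sums are given with and without them below.

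No uptake receptor passed the test between KO and WT. Of the 10 genes, 0 had an edgeR quasi-likelihood adjusted p under 0.05, as was true of 0% of all genes tested, and 0 were called by DESeq2 or limma-voom. At an unadjusted p under 0.05, 2 of the 10 were lower in KO, against 3.06% of all genes tested, and 0 were higher, against 2.71%. These were Cd14 and Havcr2. They were also the only genes of the 10 for which all WT values lay above all KO values, a pattern seen in 5.19% of genes tested. For 0 of the 10 did all KO values lie above all WT values, against 5.46% of genes tested. The 10 genes were chosen with earlier results of these data known, so these shares are no test of the set. In all, 6 of the 10 log2 fold changes lay below 0 and 4 above, with a median of -0.28 beside 0.00 over all genes tested. In a bulk library, fewer cells of a type and less RNA per cell cannot be told apart.

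**Figure D1:**
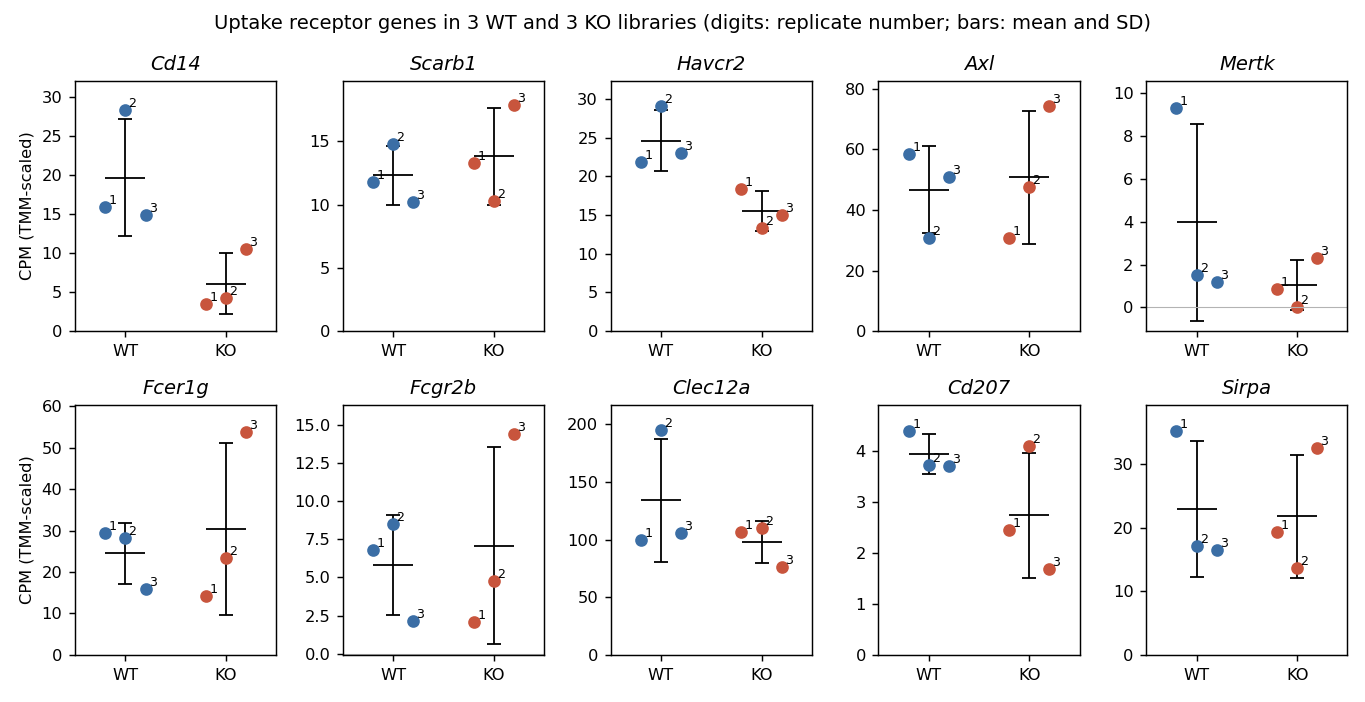
Level of each of the 10 genes in TMM-scaled CPM (vertical axes, each with its own scale) in the 3 WT and 3 KO libraries (horizontal axis; each point is a library, the digit its replicate number). Horizontal bars and whiskers are the mean and SD of 3. Only Cd14 and Havcr2 show groups that do not overlap.

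**Figure D2:**
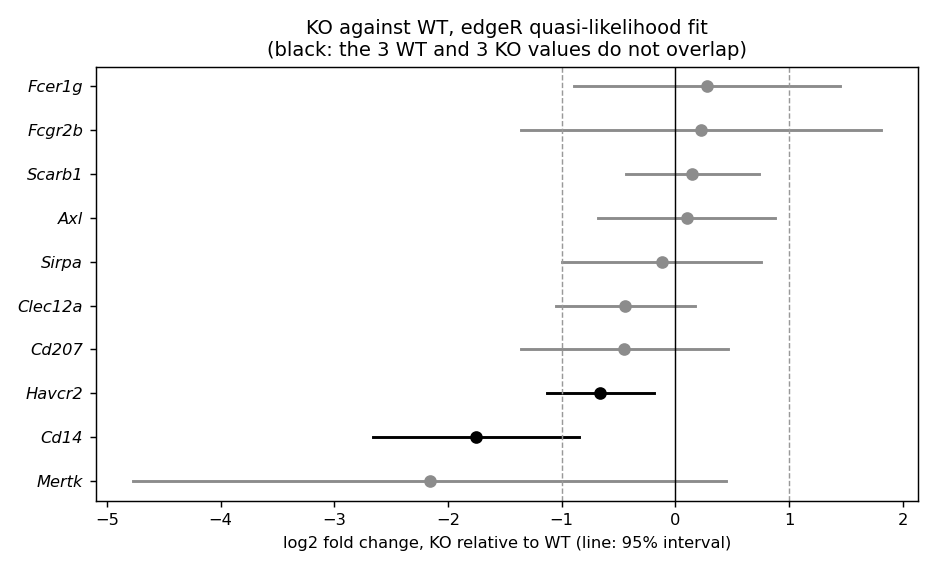
Log2 fold change of KO relative to WT from the edgeR fit (points) with its 95% interval (lines), and dashed lines at a 2-fold change either way. The intervals of Cd14 and Havcr2, in black, leave out 0, and those of the other 8 genes include it.

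Among Havcr2, Axl and Mertk, receptors for dying cells, only Havcr2 had groups that did not overlap. Havcr2 (ENSMUSG00000020399), mm10 chromosome 11, plus strand, 46454935 to 46481255, encodes TIM-3, an inhibitory receptor that on mouse CD8+ dendritic cells binds phosphatidylserine. Its level was 21.8, 29.1 and 23.0 in WT and 18.3, 13.3 and 15 CPM in KO. The lowest WT library thus lay just above the highest KO library. The means were 24.6 ± 3.91 and 15.5 ± 2.55 CPM (SD, n = 3 each), a log2 fold change of -0.66 ± 0.21 (SE) with an edgeR adjusted p of 0.834 over all genes. The interval of the fold ran from 0.456 to 0.875 of the WT level. With any 1 library left out the log2 fold change stayed between -0.80 and -0.54, and it was -0.74 without WT replicate 1 and KO replicate 3.

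Axl (ENSMUSG00000002602, chromosome 7, minus strand, 25757273 to 25788705) encodes a receptor tyrosine kinase of the TAM family that binds Gas6. It was at 58.3, 30.6 and 50.8 in WT and 30.7, 47.5 and 74.1 CPM in KO, with ranges that overlapped almost wholly. Its log2 fold change was 0.10 ± 0.34, with an interval of the fold from 0.625 to 1.84. Leaving out KO replicate 3 gave -0.25 and leaving out WT replicate 2 gave -0.13, so the data give no direction for Axl.

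Mertk (ENSMUSG00000014361, chromosome 2, plus strand, 128698956 to 128802894), the TAM receptor typical of tissue macrophages, passed the filter on low counts but was low, with a mean under 5 CPM in both groups. It had 169, 22 and 22 counts in WT and 12, 0 and 26 in KO, or 9.29, 1.49 and 1.16 CPM and 0.869, 0.0 and 2.29 CPM. The count of 0 in KO replicate 2 allows up to 0.175 CPM, taking 3 counts as the limit and covering counting error only. The log2 fold change of -2.16 ± 1.14 rested on WT replicate 1 and was -0.52 ± 0.99 without it. WT replicate 1 was 1 of the 2 libraries rich in macrophage markers. There Adgre1, which encodes F4/80, was at 19.6 CPM, against 3.31 and 2.06 CPM in the other WT libraries. Not all markers of the list went that way. Ly6c2 was at 2.97 CPM in WT replicate 1, against 13.5 and 12.7 CPM. Ccr2 was at 2.53 CPM there, against 2.64 and 5.35 CPM, and Cx3cr1 lay between the other WT values. In KO replicate 3, Adgre1 was at 26.5 CPM and Mertk at 2.29 CPM. The part of macrophage RNA in the Mertk values was not tested.

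The genes around these receptors were measured at very different levels. Tyro3, the third TAM receptor, and Gas6 were too low to be tested, at no more than 2.39 and 2.91 CPM in any library. Pros1, which encodes protein S, lay between 0.989 and 2.98 CPM. Mfge8, a bridging protein for integrins, was high in both groups, at 320 to 616 CPM over the 6 libraries, with a log2 fold change of -0.27 ± 0.19. Of 32 genes listed as dead-cell receptors and bridging proteins, 27 were tested and 0 called. The median log2 fold change was -0.12. At an unadjusted p under 0.05, 1 was higher, against 2.71% of all genes tested, and 6 were lower, against 3.06%. The lower ones included Havcr2, the integrin subunit gene Itgb8 (-0.77 ± 0.24) and Clec9a, the receptor for actin of dead cells (-0.38 ± 0.17). Stab2, a clearance receptor of sinusoidal endothelium, had the lowest value (-2.47 ± 0.87) but was low, at 0 to 3.46 CPM. Its counts were 63, 9 and 60 in WT and 12, 0 and 7 in KO, with WT replicate 2 among the KO values in CPM. The list median was -0.64 without KO replicate 3. Some genes are in more than 1 list, so the lists are not separate observations. Stab2 and Lrp1 are also listed as scavenger receptors, Cd300a as an inhibitory receptor and Clec9a as a C-type lectin receptor. The shares over all genes given here hold beside the counts of the lists below as well. Anxa5, the gene of a phosphatidylserine-binding protein, was the higher one, with 2 KO libraries at 594 and 557 CPM and the third, at 382 CPM, among the WT values of 377 to 400 CPM.

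Of the 10 genes, Cd14 had the smallest unadjusted p, 0.00143 by edgeR. The gene (ENSMUSG00000051439, chromosome 18, minus strand, 36725067 to 36726798) encodes a membrane-anchored co-receptor that hands lipopolysaccharide to TLR4 and can also bind dying cells. It was at 15.9, 28.4 and 14.9 in WT and 3.48, 4.21 and 10.6 CPM in KO, from 281 to 420 counts and from 48 to 120 counts. Every WT library lay above every KO library, with KO replicate 3 nearest to WT. The means were 19.7 ± 7.52 and 6.09 ± 3.91 CPM (SD, n = 3 each), a log2 fold change of -1.75 ± 0.41, with an edgeR adjusted p of 0.834. The interval of the fold ran from 0.159 to 0.556 of the WT level. Adjusted p-values over the alternatives that kept all 6 libraries or left out 2 ranged from 0.0984, with DESeq2, to 0.914.

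Cd14 is also a monocyte gene. Among the KO libraries, KO replicate 3 had both the highest sum of monocyte and macrophage markers, at 778 CPM, and the most Cd14, which was still less than in any WT library. The part of monocyte RNA in the Cd14 values was not tested. Without KO replicate 3 the log2 fold change was -2.33, and without both marker-rich libraries it was -2.48. The highest Cd14 value was in WT replicate 2, and without it the log2 fold change was -1.42. The summed level of the 12 cDC1 markers was 2440 CPM in that library and 1810 to 2370 CPM in the others. Irf8 made up most of this sum, at 1240 to 1740 CPM. Xcr1 was at 44.6 CPM in WT replicate 2 and 5.72 to 13.5 CPM elsewhere, and Cd8a at 140 and 30.2 to 54.0 CPM. Irf8, Itgae, Tlr3 and Naaa were highest in other libraries. Whether these levels bear on the Cd14 values was not tested.

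The partners of CD14 were scarce or showed no such difference. Tlr4, the lipopolysaccharide receptor, reached at most 1.41 CPM in any library, and Lbp was at 0 in all 6. Ly96, which encodes the MD-2 subunit of the TLR4 complex, was at 13.7 to 21.8 CPM, with a log2 fold change of 0.06 ± 0.23. Of 11 listed genes, 10 were tested and 0 called, with 2 lower and 0 higher genes by unadjusted p and a median of -0.15. The other lower gene was Cd180, a TLR4-related receptor (-0.88 ± 0.34), with KO replicate 1 at 11.9 CPM and WT replicate 1 at 10.4 CPM. Ly86, which encodes the MD-1 partner of CD180, was at 72.1 ± 7.85 (WT) and 83.6 ± 14.3 CPM (KO) (SD, n = 3 each).

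Scarb1 (ENSMUSG00000037936, chromosome 5, minus strand, 125277087 to 125341094) encodes SR-B1, the high-density lipoprotein receptor that takes up cholesteryl esters. It had 177 to 219 counts in every library. Its level was 11.8, 14.8 and 10.2 in WT and 13.3, 10.3 and 17.9 CPM in KO, the evenest of the 10 genes over the 6 libraries, with a highest value 1.75 times the lowest. Its log2 fold change of 0.15 ± 0.27 had an interval of the fold from 0.741 to 1.67, which leaves out a 2-fold change either way, and was -0.06 without KO replicate 3. Among 20 listed scavenger receptors, 14 were tested and 0 called, with a median of -0.14. At an unadjusted p under 0.05, 0 were higher, against 2.71% of all genes tested, and 3 were lower, against 3.06%. Those were Stab2, Cd36, a class B scavenger receptor like SR-B1 (-0.47 ± 0.19), and Lrp1, an endocytic receptor of the low-density lipoprotein receptor family (-0.79 ± 0.35), which was named after its values were seen. Cd36 was at 72.2 ± 8.86 (WT) and 52.3 ± 12.7 CPM (KO), and its groups met at 63.7 and 63.9 CPM. Without KO replicate 3 the list median was -0.77.

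Both Fc receptor genes varied more within KO than between the groups. Fcer1g (ENSMUSG00000058715, chromosome 1, minus strand, 171229572 to 171234365) encodes the Fc receptor gamma chain, the small signalling subunit that activating Fc receptors and several lectins share. It was at 29.3, 28.3 and 16 in WT and 14.1, 23.4 and 53.7 CPM in KO. KO replicate 3 lay above all other libraries and KO replicate 1 below them. This gave a log2 fold change of 0.28 ± 0.49, with an interval of the fold from 0.539 to 2.73, and -0.37 without KO replicate 3.

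Fcgr2b (ENSMUSG00000026656, chromosome 1, minus strand, 170958617 to 170976547) encodes the inhibitory IgG receptor. Its level was 6.76, 8.52 and 2.17 in WT and 2.1, 4.73 and 14.4 CPM in KO, from 29 to 163 counts. The groups gave a log2 fold change of 0.23 ± 0.69, with an interval of the fold from 0.39 to 3.5. Leaving out KO replicate 3 gave -0.68 and leaving out WT replicate 3 gave -0.20. Fcgr2b is close in sequence to Fcgr3, and 2.68% of its exon bases overlap the antisense gene Gm38204, so its counts are uncertain.

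The genes lie 253 kb apart and ranked the libraries nearly alike. KO replicate 3 was highest and KO replicate 1 lowest for both, and the ranks differed only between WT replicates 1 and 2. KO replicate 3 was also highest for Fcgr1 (18.2 CPM, 0 to 5.61 CPM elsewhere) and Fcgr3 (13.1 CPM, 1.01 to 5.11 CPM elsewhere), activating IgG receptors of monocytes and macrophages. B cells carry Fcgr2b as well, and all 11 B cell markers outside the set were detected, summing to 183 to 334 CPM over WT libraries and 144 to 409 CPM over KO libraries. Most of that sum was Ighm, with 390 CPM in KO replicate 1. The part of macrophage or B cell RNA in the Fcer1g and Fcgr2b values was not tested. Fcgrt, the neonatal Fc receptor gene, which carries IgG through endosomes, stayed within 36.8 to 46.3 CPM (log2 fold change -0.09 ± 0.16). Of 17 listed Fc receptor genes, 10 were tested and 0 called, 0 had an unadjusted p under 0.05 in either direction by edgeR, and the median was 0.07. That median lay between -0.34 and 0.50 when single libraries were left out.

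Promoter windows of 3 genes are shown because Havcr2 was the gene with separate groups for which a window was printed, and Fcer1g and Fcgr2b ranked the libraries nearly alike. Each holds 250 bases before and 50 bases after the RefSeq gene start, 5′ to 3′ on the gene's strand, in build GRCm38.p6, at chr11:46454681-46454980 (plus), chr1:170976022-170976321 (minus) and chr1:171234300-171234599 (minus). Capitals mark matches on either strand to GAGGAA, the PU box of the myeloid factor PU.1, or to a composite element of ETS and IRF factors, GGAA and GAAA with any 2 bases between them.
Havcr2: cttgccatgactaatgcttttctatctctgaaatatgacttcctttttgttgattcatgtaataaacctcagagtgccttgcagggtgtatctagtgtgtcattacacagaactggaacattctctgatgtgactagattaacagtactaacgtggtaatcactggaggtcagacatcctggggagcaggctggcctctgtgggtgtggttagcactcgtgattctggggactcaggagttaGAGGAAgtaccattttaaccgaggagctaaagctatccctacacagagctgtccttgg
Fcgr2b: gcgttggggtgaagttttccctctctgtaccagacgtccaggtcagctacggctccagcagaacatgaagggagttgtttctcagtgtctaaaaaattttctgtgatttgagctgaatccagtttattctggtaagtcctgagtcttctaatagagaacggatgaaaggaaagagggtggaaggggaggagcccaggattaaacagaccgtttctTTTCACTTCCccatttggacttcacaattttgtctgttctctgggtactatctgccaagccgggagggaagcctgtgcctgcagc
Fcer1g: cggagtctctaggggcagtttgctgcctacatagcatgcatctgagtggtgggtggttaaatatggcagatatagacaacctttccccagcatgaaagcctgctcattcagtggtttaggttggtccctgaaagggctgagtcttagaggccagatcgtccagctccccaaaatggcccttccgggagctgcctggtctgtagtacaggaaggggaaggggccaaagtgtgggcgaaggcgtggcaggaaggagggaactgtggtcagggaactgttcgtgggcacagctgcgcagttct
The Havcr2 window held 1 PU box, from base 243 to base 248, and the Fcgr2b window 1 composite element on the opposite strand, from base 216 to base 225. The Fcer1g window held neither string. Of all 32851 promoter windows in the table, 28.3% held GAGGAA and 2.72% held the composite element. RefSeq windows were matched for 7 of the 10 genes. Of these, 4 held GAGGAA and 1 the composite element, and no match overlapped another.

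The lectin receptors were both lower on average in KO, within the spread. Clec12a (ENSMUSG00000053063, chromosome 6, plus strand, 129342691 to 129365303) encodes an inhibitory C-type lectin that binds uric acid crystals released by dying cells. It had the most counts of the 10 genes, 867 to 2890 per library. Its level was 100, 195 and 106 in WT and 107, 110 and 76.5 CPM in KO. WT replicate 2 was high and the other WT libraries lay among the KO values. The log2 fold change of -0.44 ± 0.27 (edgeR adjusted p = 0.853) was -0.08 ± 0.17 without WT replicate 2. The neighbouring gene Clec9a, 43.6 kb away, was at 61.9, 85.5 and 83.4 in WT and 50.8, 66.4 and 59.8 CPM in KO, with ranges that overlapped in a single KO library.

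Cd207 (ENSMUSG00000034783, chromosome 6, minus strand, 83671215 to 83677857) encodes langerin, the lectin of Birbeck granules in Langerhans cells, which some migratory mouse cDC1s also carry. It was low, with a mean under 5 CPM in both groups, as was Mertk alone among the other genes. Its counts were 80, 55 and 70 in WT and 34, 70 and 19 in KO, or 4.4, 3.72 and 3.71 CPM and 2.46, 4.09 and 1.68 CPM. The WT libraries were close together, and KO replicate 2 lay among them. The log2 fold change of -0.45 ± 0.42 had an interval of the fold from 0.389 to 1.37, which includes no change. It was -0.17 ± 0.51 without WT replicate 1 and KO replicate 3. Among genes that Langerhans cells also express, Mfge8 was lowest in KO replicate 3, at 320 CPM, as Cd207 was, while Epcam was highest there, at 15.1 CPM.

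No other C-type lectin gene was called. Of 34 listed, 33 were in the table, 19 were tested and 0 called, with 1 lower and 1 higher gene by unadjusted p and a median of 0.09. Ly75, which encodes DEC-205, was at 464 to 637 CPM (log2 fold change 0.01 ± 0.14), and Clec2i followed at 133 to 215 CPM. The lower gene was Clec9a, whose exons share 5.59% of their bases with Clec1b. The higher one was Cd302, a small endocytic lectin, at 24.7, 19.1 and 30.6 in WT and 26.1, 46.9 and 50.6 CPM in KO (0.72 ± 0.26). Cd209a, a lectin of cDC2s, was read in 1 library only, at 0.495 CPM.

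Sirpa (ENSMUSG00000037902, chromosome 2, plus strand, 129592835 to 129632228) encodes the inhibitory receptor for CD47, which restrains uptake of living cells, and marks cDC2s rather than cDC1s. It was at 35.3, 17.2 and 16.5 in WT and 19.3, 13.7 and 32.5 CPM in KO. The highest values were in WT replicate 1 and KO replicate 3, the libraries richest in macrophage markers, and the other 4 lay between 13.7 and 19.3 CPM. A log2 fold change of -0.12 ± 0.39 had an interval of the fold from 0.50 to 1.68. It was 0.34 without WT replicate 1, -0.51 without KO replicate 3 and -0.05 without both. All 10 cDC2 markers other than Sirpa were detected, and they summed to 151 to 217 CPM in WT and 171 to 276 CPM in KO. Most of that sum was Irf4 and Esam, and Cd209a was at 0 in 5 libraries. The part of other cells in the Sirpa values was not tested. Sirpa is close in sequence to the Sirpb1 genes, so its counts carry that uncertainty.

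No ligand or signalling partner of the inhibitory receptors was called. Cd47 was at 444 to 588 CPM (log2 fold change 0.09 ± 0.13). Among 22 listed SIRP, CD47 and other inhibitory receptor genes, 18 were tested and 0 called, with 2 lower, 1 higher (Pdcd1, 1.21 ± 0.50, at no more than 4.32 CPM) and a median of 0.03. Those with the smallest p were Siglech, a lectin of plasmacytoid dendritic cells (-2.32 ± 0.78), and Cd300a, an inhibitory receptor for phosphatidylserine (-1.86 ± 0.75), at 0 to 12.6 and 0 to 5.99 CPM. Ptpn6, which encodes SHP-1, the phosphatase that inhibitory motifs recruit, was at 368 to 463 CPM (0.12 ± 0.12). Ptpn11, which encodes the related SHP-2, was at 75.9, 69.5 and 70.3 in WT and 61.9, 44.0 and 47.2 CPM in KO, without overlap (-0.50 ± 0.16, edgeR adjusted p = 0.834).

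Signalling and engulfment genes were not called either. Of 19 genes of ITAM and ITIM signalling, the activating and inhibitory tyrosine motifs of these receptors, all 19 were tested and 0 called, with 1 lower, 0 higher and a median of -0.01. Syk, the kinase that binds the gamma chain, was at 118 to 171 CPM (0.20 ± 0.15) and Malt1, a protease of lectin signalling, had a log2 fold change of 0.34 ± 0.17. Of 16 engulfment genes all were tested and 0 called, with 1 lower, 0 higher and a median of -0.09. The lower gene was Wdfy4, needed for cross-presentation of cell-bound antigen, at 66.9, 111 and 68.6 in WT and 41.7, 33.3 and 58.3 CPM in KO (-0.89 ± 0.25). Rac1, the GTPase of phagocytic cup formation, had a log2 fold change of 0.31 ± 0.15, and 51.4% of its exon bases overlap Daglb on the opposite strand.

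The data gave no clear direction for the genes of TIM-3 ligands. The intervals of the fold of Lgals9, Hmgb1 and Ceacam1 all included no change. Of 8 genes in the list of TIM-3 ligands and co-inhibitory partners, all were tested and 0 called, Havcr2 alone was lower by unadjusted p, 0 were higher, and the median was 0.19. Lgals9, which encodes galectin-9, was at 8.35, 12.0 and 4.24 in WT and 3.69, 12.7 and 21 CPM in KO (0.61 ± 0.57). Hmgb1 was at 54.9 to 81.8 CPM (0.13 ± 0.16). Ceacam1, an adhesion receptor that binds TIM-3, was at 34.7 ± 20.8 (WT) and 83.4 ± 33.8 CPM (KO) (SD, n = 3 each), a log2 fold change of 1.25 ± 0.53 with an edgeR adjusted p of 0.834. Pdcd1lg2, which encodes PD-L2, had a log2 fold change of 0.72 ± 0.35. The ranges of both overlapped between the groups.

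**Figure D3:**
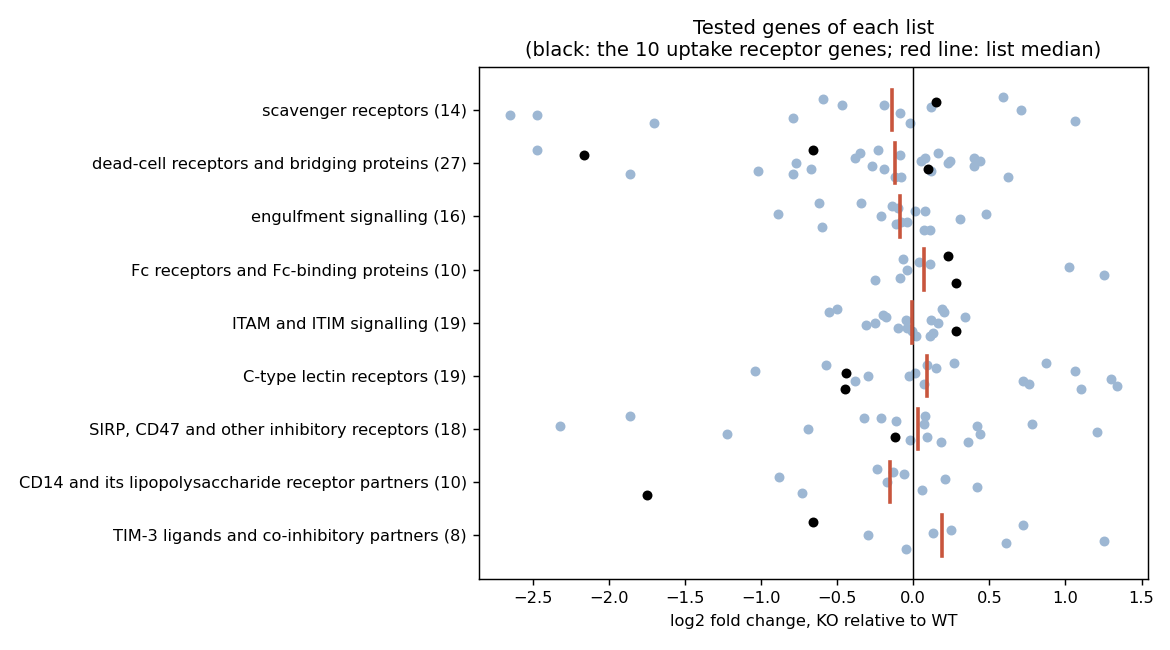
Log2 fold change of KO relative to WT (horizontal axis) for the tested genes of 9 lists, with the number tested in brackets; each point is a gene, the 10 uptake receptor genes are black and red lines are list medians. The medians lie between -0.15 and 0.19, and Cd14 and Mertk lie far to the left of theirs.

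Compared per length, the gamma chain and Clec12a were the most abundant of the 10 transcripts. In RPKM, here CPM divided by the length in kilobases of all annotated exons joined, the mean over 6 libraries was 31.4 ± 16.3 for Fcer1g, 21 ± 7.39 for Clec12a and 9.67 ± 3.32 for Axl (SD). Cd14 at 7.46 ± 5.31 and Havcr2 at 7.38 ± 2.13 RPKM followed, then Sirpa at 4.56 ± 1.86, Cd207 at 2.2 ± 0.689, Scarb1 at 1.54 ± 0.347, Fcgr2b at 1.11 ± 0.80 and Mertk at 0.58 ± 0.784 RPKM. Neighbours in this order overlapped in every case, whereas the lowest Fcer1g value, 16.1 RPKM, lay above the highest Axl value, 14.7 RPKM. In WT alone Cd14 was at 11.4 ± 4.34 RPKM, above Havcr2 at 9.05 ± 1.44 RPKM, and in KO it was at 3.52 ± 2.26 RPKM, below Havcr2 at 5.71 ± 0.937 RPKM. Where a gene's joined exons are longer than its main transcript, the level is understated.

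Across the set, genes differed in how far a single library stood above the others. Mertk in WT replicate 1 lay far above its other values, whereas the highest values of Sirpa and of Cd207 each had another library close below. The highest value of every gene lay in WT replicate 1, WT replicate 2 or KO replicate 3. WT replicate 1 was highest for Mertk, Sirpa and Cd207, WT replicate 2 for Cd14, Havcr2 and Clec12a, and KO replicate 3 for Axl, Scarb1, Fcgr2b and Fcer1g. KO libraries held the lowest value of 8 genes. How often each library was highest or lowest over all genes tested was not computed. The coefficient of variation between KO libraries ranged from 16.4% for Havcr2 to 110% for Mertk, and between WT libraries it reached 116% for Mertk. The summed level of the 10 genes was 293, 358 and 245 in WT and 211, 232 and 299 CPM in KO, with KO replicate 3 among the WT values.

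**Figure D4:**
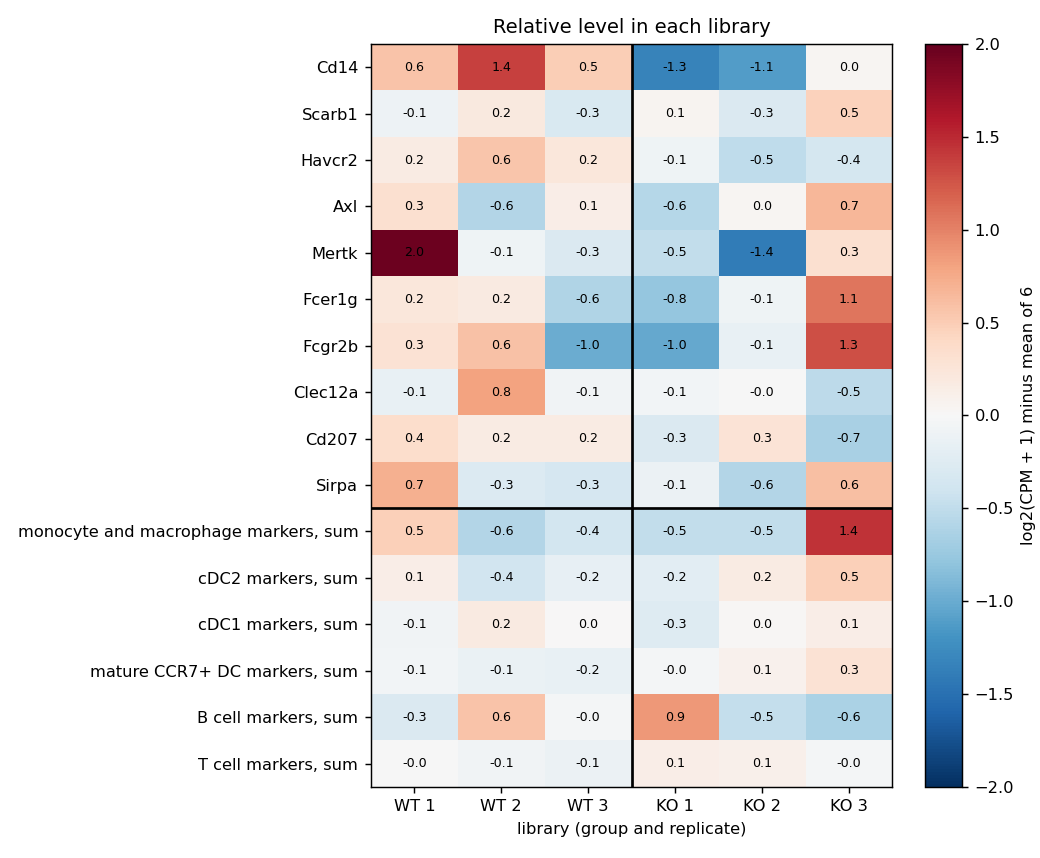
Level of each gene and of the summed markers of 6 cell types (rows; markers exclude the 10 genes) in each library (columns), as log2(CPM + 1) minus the mean of the 6 libraries, with the difference printed in each cell. Fcer1g and Fcgr2b are highest in KO replicate 3, where monocyte and macrophage markers summed to 778 CPM, and Cd14 is lowest in KO replicates 1 and 2.

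Precision set what could be seen. The intervals of 8 of the 10 log2 fold changes reached a 2-fold change in at least 1 direction, and those of Axl and Scarb1 alone stayed within it. Leaving out single libraries turned the sign for Axl, Scarb1, Sirpa, Fcgr2b and Fcer1g, and for none of Cd14, Havcr2, Mertk, Clec12a and Cd207. For Cd14 these values ran from -2.33 to -1.42, for Clec12a from -0.62 to -0.08, for Cd207 from -0.92 to -0.24 and for Mertk from -3.37 to -0.52.

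**Figure D5:**
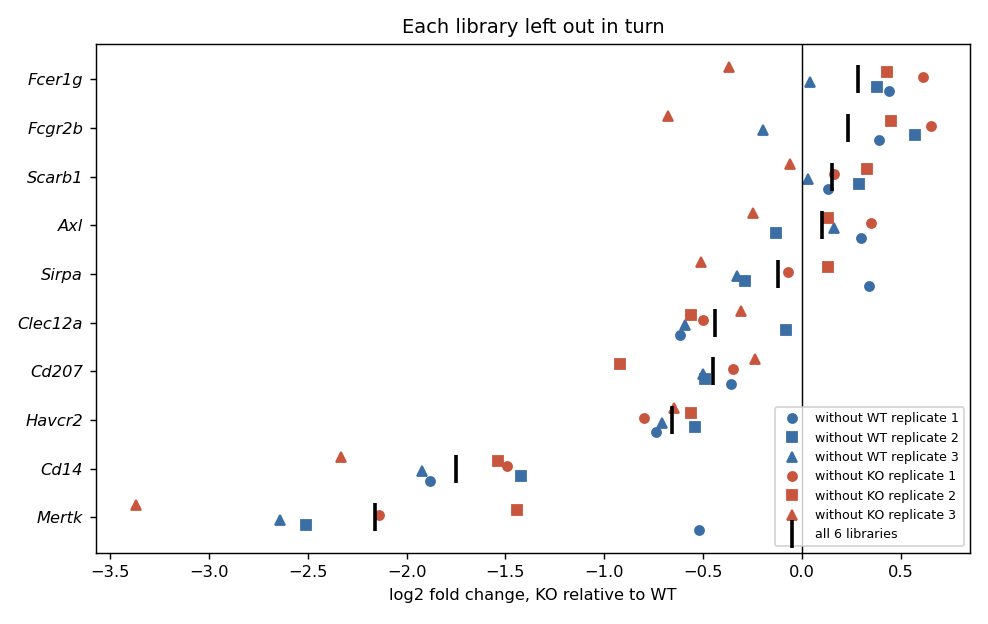
Log2 fold change of KO relative to WT (horizontal axis) for each gene with all 6 libraries (black bars) and with each library left out in turn (symbols; blue for WT, red for KO libraries). Cd14 and Havcr2 stay below 0 throughout, and Mertk moves to -0.52 without WT replicate 1.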

How the data were processed

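RNA was taken with Trizol and sequenced as 150-base paired reads on an Illumina NovaSeq, per the labels' protocols. The authors deposited raw read counts per Ensembl gene for 6 libraries, and the submitters' processing notes list HISAT2 2.0.5, HTSeq and mm10. No source used here gives the annotation release, the use of strand or how multi-mapped reads were counted.

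Columns were matched to samples by library label. Genes passing filterByExpr (12568) received TMM scaling and entered edgeR 4.0.16 in R 4.3.3 (glmQLFit, robust; glmQLFTest, KO against WT, Benjamini-Hochberg over all genes tested, threshold 0.05). The common biological coefficient of variation was 30.1%. SEs are the fold change over the root of F, and intervals are 95%. A gene dropped by the filter was to be called too low to judge, and one under 5 CPM on average in both groups low. Names and exon lengths came from GENCODE M21 of mm10. Named genes were the 10 genes, Vps33b and the 2 other genes of each of 9 lists with the smallest p; further genes (those of ligands, partners and markers, and Lrp1 and Anxa5) were chosen after their values were seen. The members and lists were chosen with earlier results of these data known. Alternatives were RLE and upper-quartile scaling, 2 other filters, DESeq2 1.42.0, limma-voom (limma 3.58.1) with and without quality weights, edgeR without robust estimation, a table without haemoglobin, immunoglobulin and T-cell receptor genes, a replicate block, GC and length offsets and each library left out. Legacy quasi-dispersions and leaving out the 2 marker-rich libraries together were chosen after seeing the data. The fit was tested on simulated data.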

Additional observations from a re-analysis of the deposited data

How the results depend on the processing

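Under 13 alternatives that kept all 6 libraries or left out 2, and 6 that left out 1 library, no uptake receptor and no gene of the 9 lists was called. Over all genes, 3 were called by edgeR without a filter, 8 by DESeq2 and 0 to 7 with 1 library left out. At an unadjusted p under 0.05, 725 genes became 1210 with quality weights, 366 without WT replicate 1 and KO replicate 3, and 376 to 1621 with 1 library left out. Of the uptake receptors, 2 to 3 were under that limit with 1 library left out.

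The sign turned for 5 genes. Axl (main value 0.10) ranged from -0.25 to 0.35 with 1 library left out, Scarb1 from -0.06 to 0.33, Sirpa from -0.51 to 0.34, Fcgr2b from -0.68 to 0.65 and Fcer1g from -0.37 to 0.61. Without WT replicate 1 and KO replicate 3 the values were -0.07 for Axl, -0.09 for Scarb1, -0.55 for Fcgr2b and -0.23 for Fcer1g. The cause was not tested beyond the libraries left out. No scaling, filter, tool or offset turned a sign among the 10 genes. Vps33b stayed between -1.42 and -1.11 with 1 library left out.

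The replicate numbers are not said to pair the samples. Deviations from the group means correlated at 0.00519, 0.0281 and -0.00126 between same-numbered libraries, over genes, and libraries did not correlate best with their own number throughout. With the replicate block 0 genes were called, and 4 of the uptake receptors had an unadjusted p under 0.05, Mertk and Clec12a in addition to Cd14 and Havcr2.

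Of 171 recomputed list medians 3 moved by more than the spread between replicates: scavenger receptors (-0.77 without KO replicate 3, -0.79 without both marker-rich libraries) and dead-cell genes (-0.64 without KO replicate 3). Of 60 recomputed WT levels per length 0 did. Cd207 and Fcgr2b had 19 to 163 counts, and Mertk 0 to 26 outside WT replicate 1. Their intervals of the fold were 0.389 to 1.37 for Cd207, 0.39 to 3.5 for Fcgr2b and 0.0367 to 1.36 for Mertk. Each includes both no change and a 2-fold fall, so even changes of that size could not be judged at this depth and spread.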
